A study of Mus musculus with 360 samples.

Results

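Single C1498 cells picked 1 h after a heat pulse were compared with control cells picked at the same time. C1498 is known as a mouse acute myeloid leukemia cell line. The heated cells were the 13 that had been held at 45 °C for 10 min, and the control cells were the 11 that had been held at 37 °C for 10 min instead. Both sets were chosen by the temperature and time in the sample titles, and they make up 24 of the 360 cells of the series. Cells were followed by time-lapse microscopy, picked singly by an automated instrument and sequenced with molecular barcodes (UMIs). Times run from the end of heating, so the cells picked at -1 h, 6 in the 45 °C arm and 11 in the 37 °C arm, had not been heated and served as the background. No culture is named in the labels, so all cells of a group may share 1 culture and each group was read as 1 sample. No p-value or standard error was therefore computed: values describe these cells, and every 95% interval covers counting error only.

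Heat unfolds proteins, and cells answer by releasing heat shock factor HSF1, which binds repeated GAA units (heat shock elements) upstream of chaperone genes and raises their transcription. Transcription of many other genes, splicing and translation are reduced meanwhile. RNA polymerase III, which makes short RNAs such as the RNA parts of ribonuclease P (Rpph1) and ribonuclease MRP (Rmrp) and the rodent 4.5S RNA (Rn4.5s), is also known to respond to heat, with B2 RNA of mouse cells as the classic case.

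The RNAs that set the heated cells apart are not messenger RNAs, and their 3′ ends are shown because the libraries were primed with a stretch of T. The last 120 bases of Rmrp (chr4:43492788-43493058, minus strand, 271 bases, 1 exon) and of Rpph1 (chr14:50807449-50807767, minus strand, 319 bases, 1 exon) read as follows in the GENCODE annotation of GRCm38 (mm10). Capitals mark runs of A as long as the longest run of that RNA, which is 2 bases in Rpph1; the longest run of Rmrp, 3 bases, lies outside the part shown.
Rmrp: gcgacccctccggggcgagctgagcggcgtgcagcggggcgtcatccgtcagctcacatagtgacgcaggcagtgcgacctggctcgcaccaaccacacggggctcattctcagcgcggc
Rpph1: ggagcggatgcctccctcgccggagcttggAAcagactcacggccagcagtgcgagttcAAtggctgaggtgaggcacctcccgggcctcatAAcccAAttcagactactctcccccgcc
Neither annotated RNA ends in A, and neither holds a run of A near the length of the primer. How molecules of these RNAs came to be primed was not tested. Rn4.5s is placed by RefSeq at chr6:47654921-47655094 (GRCm38.p6), and no sequence of it was used here.

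The heated cells held 435096 UMIs in all and the control cells 395693. A heated cell had between 11914 and 84760 UMIs (median 31727) and a control cell between 20678 and 56161 (median 35495). Each of the 13 heated and 11 control cells correlated better with the other cells of its own group than with the other group (587 genes; r with its own group 0.775 to 0.933), and no cells had identical values. The rRNA precursor Rn45s took between 8.32% and 19.4% of a cell's UMIs, with medians of 11.2% in heated and 10.6% in control cells. The summed level of 6 leukocyte markers, 5 of them with UMIs, was 2664 CPM (counts scaled to a total of 1000000) in heated and 2646 CPM in control cells. Of the 16 T cell markers found among the genes, 8 had UMIs in heated and 10 in control cells. Cd3e and Cd3g had the most, at 243.6 and 220.6 CPM in heated and 204.7 and 214.8 CPM in control cells. Cd4, Cd8a, Cd8b1, Cd5, Thy1 and Il7r were at 0 CPM in both groups. The B cell and fibroblast markers had no UMI in either group. Of 15 myeloid markers only Fcgr1 and Fcgr3 had UMIs (25 heated, 22 control), and Spi1, Cebpa, Mpo, Elane and Lyz2 were at 0 CPM. The myeloid markers summed to 57.5 CPM in heated and 55.6 CPM in control cells, against 570 and 612 CPM for the T cell markers. These markers thus do not bear out the myeloid name of the line.

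Short RNAs of RNA polymerase III separated the heated from the control cells completely. Of the 15 RNAs on that list, 6 were in the table, and together they made up 1.39% of all UMIs of the heated cells and 0.0167% of those of the control cells (log2 ratio 6.37, interval 6.03 to 6.76). Their summed level was between 7673 and 20560 CPM in a heated cell. The highest of the 51 unheated cells of the series reached 2759 CPM, so 13 of 13 heated cells lay above every unheated cell.

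Rn4.5s gave most of this sum. It stood at 6854, 14268 and 19169 CPM in the lowest, median and highest heated cell, and at 0, 106.8 and 831 CPM in the control cells. All 13 heated cells were above all 11 control cells, and the ratio of the group levels (12951 against 156.7 CPM) was 6.36 on the log2 scale (6.01 to 6.75). Control cell 4 alone supplied 21 of the 62 control UMIs, and without it the log2 ratio was 6.89.

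Rpph1, the catalytic RNA of the enzyme that trims transfer RNA precursors, stood at 0, 557 and 1611 CPM in the lowest, median and highest heated cell. In the control cells it was at 0 in all but cell 1, which had 1 UMI (24.05 CPM). Only heated cell 10, the shallowest cell, had no UMI of it; the other 12 lay above every control cell. The log2 ratio was 7.27 with a wide interval (5.36 to 13.2), and 8.69 without control cell 1.

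Rmrp, the RNA of the nucleolar enzyme that cuts ribosomal RNA precursors, was seen in all 13 heated cells and in no control cell. Its level was 65.2, 224 and 1091 CPM in the lowest, median and highest heated cell. At 359 CPM over the group, it was at least 47.3-fold higher than the 7.58 CPM that a floor of 3 counts over the control group allows.

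**Figure D1:**
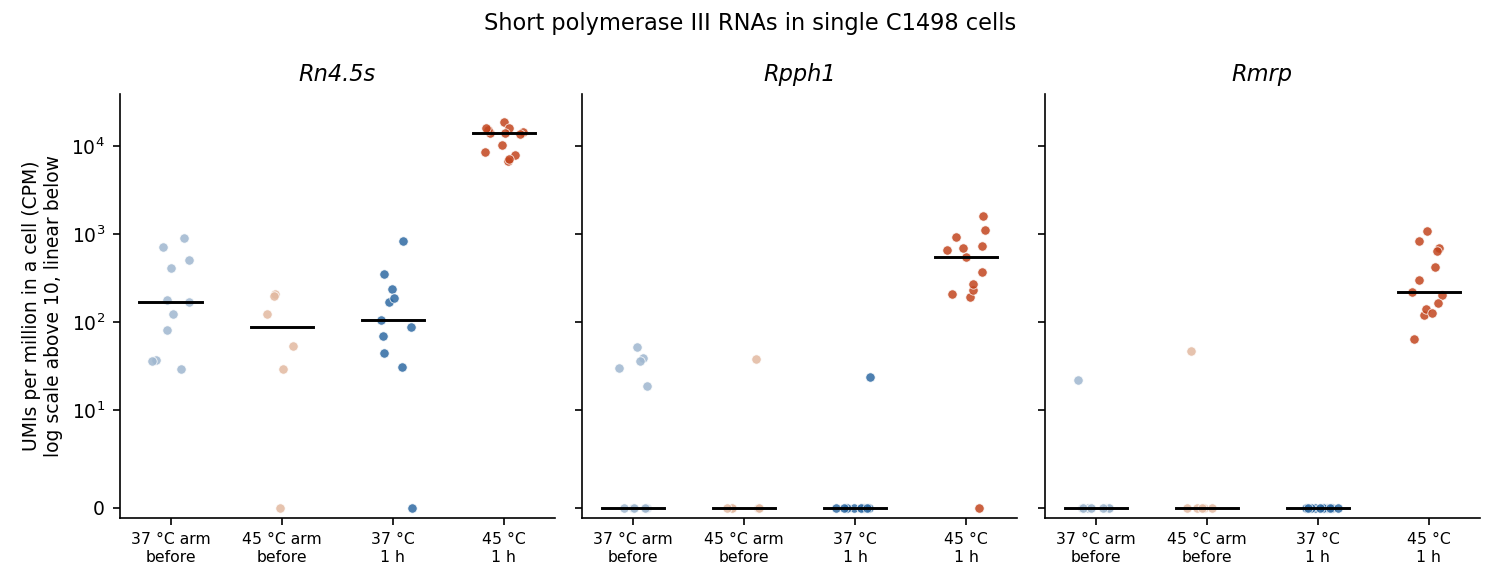
Levels of 3 short RNAs in single cells before heating and at 1 h (CPM; log scale above 10, linear below). Each point is 1 cell and the line is the group's median. The heated cells sit apart for Rn4.5s and Rmrp, while heated cell 10 is at 0 for Rpph1.

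The other short RNAs of the list gave little. Vaultrc5, a vault RNA, had 11 UMIs in 7 heated cells and 1 in the control cells (log2 2.80, 0.54 to 8.75; 4.29 without control cell 5). Bc1, known from neurons, had 1 and 2 UMIs, and the spliceosomal U6 RNA Rnu6 had none in either group.

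The 3 abundant short RNAs did not rank the heated cells alike. Over the 13 heated cells, Rn4.5s and Rmrp had a Pearson correlation (r) of 0.59 and a Spearman rank correlation of 0.68. Rn4.5s and Rpph1 had r = -0.27 and a rank correlation of -0.06, and Rpph1 and Rmrp r = -0.04 and a rank correlation of 0.17. The points share 1 library design and differ in depth, and r between level and depth was 0.14 for Rn4.5s, -0.01 for Rpph1 and -0.19 for Rmrp. Heated cell 9 shows the difference: it had the highest Rpph1 level of all (1611 CPM) but a low Rn4.5s level (8717 CPM).

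The arms did not foreshadow this difference before heating. In the cells picked at -1 h, Rn4.5s stood at 109.8 CPM in the 45 °C and 339 CPM in the 37 °C arm (log2 -1.60, -2.34 to -0.98), the other way round. Rpph1 was at 9.98 and 15.4 CPM, and Rmrp had 1 UMI in each arm. At 5 h after heating the median heated cell still had 3296 CPM of Rn4.5s, under the lowest cell at 1 h.

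Most genes of the polymerase III machinery did not stand higher with its short RNAs. Of 29 such genes, 19 were measured, and 13 of them had a ratio under 0 (median log2 -0.38, against -0.14 over all measured genes and -0.22 for the same list before heating). Of the 19, 2 were called lower, beside 6.3% of all measured genes given below, and none higher. Gtf3c6, of the factor TFIIIC, had the highest ratio, at 80.4 against 42.96 CPM (log2 0.88, 0.03 to 1.83), and was at -0.69 with cells thinned to 5000 UMIs. Polr3g, a subunit of the polymerase, was seen in 3 of 13 heated cells and 7 of 11 control cells, with a median of 0 in heated and 46.9 CPM in control cells and a highest value of 30.9 and 118.1 CPM. Its group level was 9.19 against 45.5 CPM (log2 -2.18, -4.33 to -0.70), from 4 and 18 UMIs. The unheated groups ranged from 4.1 to 45.5 CPM, so the heated level lay inside their range and the control level was the highest. Bdp1, of the initiation factor TFIIIB, was at 22.98 against 53.1 CPM (-1.17, -2.46 to -0.06; -0.96 without control cell 11), and the arms differed as much before heating (-1.45). Ssb, the La protein that binds the ends of new polymerase III transcripts, was at 473 against 462 CPM (0.03, -0.26 to 0.33). The proteins of ribonucleases P and MRP, partners of Rpph1 and Rmrp, were under 0 in 7 of 8 measured genes (median -0.26; 0.20 before heating), and each of the 8 intervals held 0.

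Across the transcriptome, more genes stood lower than higher in the heated cells, mostly genes of low level, and the imbalance depended on the settings. Genes counted as measured had 20 or more UMIs over the 2 groups and reached 10 CPM in one of them, and a gene was called where the group levels differed at least 2-fold. Of 5273 measured genes, 332 (6.3%) were at least 2-fold lower in the heated cells and 76 (1.44%) at least 2-fold higher. With the ratios centred on their median over all measured genes (-0.14), these shares were 4.12% and 2.12%. With cells thinned to 5000 UMIs they were 3.78% and 3.05% of 952 genes, and with at least 100 UMIs over the 2 groups together 0.38% each of 1316 genes. In the pair of arms before heating, 4.52% of 4798 genes were that much lower in the 45 °C arm and 2.58% higher. In the control arm at 1 h over -1 h, 2.26% of 5583 genes were lower and 2.72% higher. With every group drawn down to 200371 UMIs, the shares at 1 h were 6.02% lower and 1.73% higher, against 3.31% and 2.65% before heating and 2.73% and 3.64% in the control arm. Calls are thus common without heat at this depth. At equal depth, without centring, the share lower was larger at 1 h than in either unheated comparison. The unheated arms differed in depth (200397 and 453932 UMIs) and were not centred, so their 4.52% cannot be set against the centred 4.12%.

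The shift depended on the level of a gene. Among 2111 genes with a mean level under 50 CPM, 67.2% had a ratio under 0 (median log2 -0.26), and the share under 0 was 66.1% of 1554 genes between 50 and 100 CPM, 63.3% of 877 between 100 and 200 CPM and 30.7% of the genes at 1000 CPM or more (median 0.07). Before heating the medians of the same ranges lay between -0.06 and 0.05. A share of all UMIs cannot show whether the low genes lost molecules or the abundant ones gained them, and RNA content per cell was not analysed here.

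**Figure D2:**
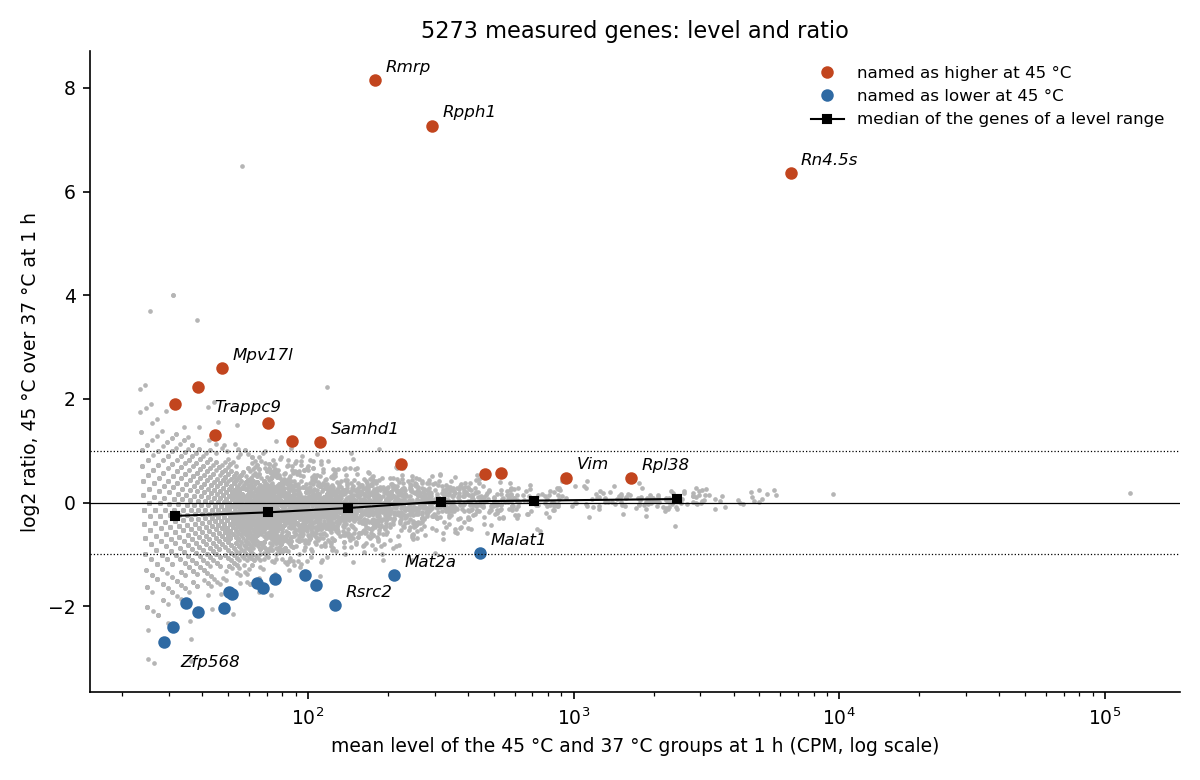
Log2 ratio of 45 °C over 37 °C at 1 h against the mean level (CPM, log scale) of 5273 measured genes. Coloured points are the 15 named genes of each direction, black squares are the medians of 6 level ranges and dotted lines mark 2-fold. The medians pass from -0.26 under 50 CPM to 0.07 at 1000 CPM or more, and the plotted ratio of Rmrp depends on the 0.5 UMI added to its control count of 0.

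Single cells gave the same picture at 1 depth. Among 10000 UMIs drawn from each cell, the lowest, median and highest heated cell had UMIs of 2788, 2942 and 3221 genes, and the control cells 3030, 3234 and 3477. All 13 heated cells lay under the control median and 8 lay under every control cell, while 6 of 11 control cells lay above every heated cell. Before heating the medians were 3162.5 genes in the 45 °C arm and 3190 in the 37 °C arm. The control median at 1 h was the highest of the unheated groups. The lowest, that of the 37 °C cells at 5 h, was 3078.5 genes, and those cells (2827 to 3277) overlapped the heated cells. Without Rn45s and the short RNAs the medians at 1 h were 3190 and 3471, a difference of -281 genes against -292 with them.

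**Figure D3:**
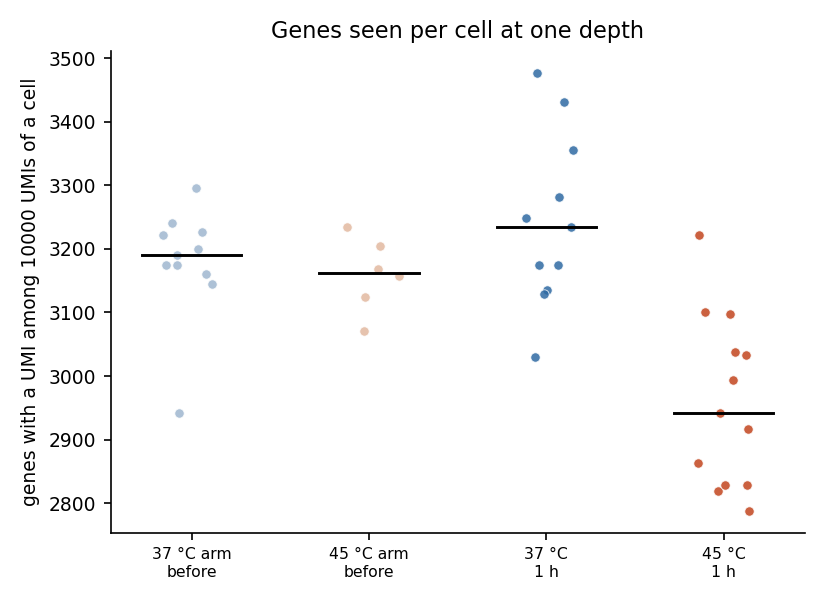
Number of genes with a UMI among 10000 UMIs drawn from each cell in the arms before heating and at 1 h. Each point is 1 cell and the line is the group's median: the heated cells have a median of 2942, against 3234 in control cells.

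Besides the short RNAs, the named genes that stood higher had log2 ratios from 0.47 to 2.59, and most overlapped between the groups. A gene was named where it had at least 50 CPM and a UMI in at least 50% of the cells of the higher group, a heated level outside the range of all 6 unheated groups, and the same direction with any cell left out. Of 1375 genes that stood higher and passed the first 2 conditions, 286 passed all, and 82 of these had an interval above 0. The 15 with the interval bound farthest from 0 begin with Rn4.5s, Rpph1 and Rmrp. Up to 5 genes of each direction were named besides by how well they split the cells, as the share of all combinations of 1 heated and 1 control cell in which the heated cell was higher.

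The ribosomal protein gene Rpl38 and the kinase gene Dgka separated the cells best among the messenger RNAs named as higher, each with the heated cell higher in 94.4% of combinations. Rpl38 stood at 1569, 2002 and 2848 CPM in the lowest, median and highest heated cell and at 827, 1460 and 1828 CPM in the control cells. Each heated cell lay above the control median and 9 of 13 above every control cell, although the log2 ratio was only 0.47 (0.31 to 0.62; -0.01 before heating). Over the list of 81 ribosomal proteins the differences were smaller: 50 had a ratio above 0, with a median of 0.03 against -0.14 over all measured genes. Ratios depended on level, and genes at 1000 CPM or more, where Rpl38, Rpsa and Rpl41 lie, had a median of 0.07. The list's median was thus not above that of abundant genes. Of the 81 intervals, 18 lay above 0 and 3 under 0, and none of the genes, Rpl38 included, was called. Rpsa was at 6148 against 5219 CPM (0.24, 0.15 to 0.32) and Rpl41 at 6075 against 5474 CPM (0.15, 0.07 to 0.23).

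Dgka, a diacylglycerol kinase known in lymphocytes, stood at 100, 237 and 364 CPM in the lowest, median and highest heated cell and at 0, 119.7 and 192.4 CPM in the control cells. In 11 of 13 heated cells the level was above every control cell (log2 1.02, 0.53 to 1.55; 0.94 without control cell 10). Before heating the arms stood at 199.6 and 140.99 CPM (0.51, -0.11 to 1.09), and the heated level, 248 CPM, was inside the range of the unheated groups (121.3 to 265.5 CPM).

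Of the genes of cholesterol synthesis, Insig1, which restrains the pathway, was at 41.4 against 17.7 CPM (1.17, -0.10 to 2.73; 0.82 without heated cell 3). Of 17 measured genes of this list 14 had ratios above 0, with a median of 0.16, against -0.13 before heating, and 2 were called higher, beside 1.44% of all measured genes. The list's median was -0.46 in the control arm at 1 h over -1 h and 0.10 in the heated arm over its own -1 h cells, so the larger difference from the cells before heating was that of the control cells.

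P4hb and Pdia3, disulfide isomerases of the endoplasmic reticulum, stood higher at 552 against 374 CPM (0.56, 0.26 to 0.87) and 280 against 176.9 CPM (0.66, 0.23 to 1.11). Hsp90b1, the HSP90 of the same compartment, was at 650 against 498 CPM (0.38, 0.12 to 0.66; -0.16 with cells thinned to 5000 UMIs). Hspa5, its main HSP70, went the other way. It was at 219.1, 681 and 928 CPM in the lowest, median and highest heated cell and at 205.5, 945 and 1266 CPM in the control cells. All 13 heated cells lay under the control median (log2 -0.56, -0.79 to -0.32; 0.04 before heating). The heated group level of Hspa5, 607 CPM, was just under the lowest unheated group (612 CPM). Its control level, 892 CPM, was the highest of the unheated groups. The list of the unfolded protein response of that compartment did not stand apart: 10 of 23 measured genes had ratios above 0, with a median of -0.11 against -0.14 over all measured genes. Called lower were 2, beside 6.3% of all genes, and none higher, beside 1.44%. The 2 were Derl2 (-1.52, -3.07 to -0.26) and Sel1l (-1.07, -2.09 to -0.14; -0.75 without heated cell 2), both of the degradation machinery.

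Vim, the intermediate filament protein vimentin, was at 1092 against 783 CPM (0.48, 0.27 to 0.69), Lars2, a mitochondrial leucyl-tRNA synthetase, at 634 against 430 CPM (0.56, 0.28 to 0.85; 629 CPM in the unheated cells of the 45 °C arm), and Ppic, a cyclophilin, at 280 against 166.8 CPM (0.74, 0.31 to 1.2). In Ppic 7 of 13 heated cells were above every control cell, and in Vim and Lars2 3 of 13. Samhd1 (1.16), an enzyme that degrades dNTPs, was at 0.96 without heated cell 2 and at -0.34 with cells thinned to 10000 UMIs. Plekha8, a lipid transfer protein of the Golgi, was at 64.3 against 25.3 CPM (1.30, 0.26 to 2.55; 2.05 without control cell 9). Casc4 was at 50.6 against 12.6 CPM (1.90, 0.56 to 3.76; 2.39 without control cell 1), but at 49.9 CPM in the unheated cells of the 45 °C arm. Mpv17l had a log2 ratio of 2.59, with 534 CPM in heated cell 13 and 504 CPM in heated cell 10. The ratio was 1.86 without cell 13 and 3.09 without control cell 1. The heated level was 82.7 CPM, against 44.9 and 55.1 CPM in the 45 °C and 37 °C arms before heating. The control level, 12.6 CPM, was the lowest of the unheated groups, as were those of Samhd1 and Plekha8. Trappc9 had a log2 ratio of 2.24, with 568 CPM in heated cell 13. The ratio was 1.03 without that cell and 3.95 without control cell 1. The heated level of Trappc9 was 64.4 CPM. Before heating the 45 °C arm stood at 39.9 against 15.4 CPM in the 37 °C arm (1.36, -0.29 to 3.07).

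More genes met the naming rule as lower. Of 2259 genes that stood lower and had the level and detection the naming rule asks for in control cells, 552 passed all its conditions, and 224 of these had an interval under 0. Of the genes named by that rule as lower, 14 of 15 were called, against 10 of 15 higher ones. Both sets were chosen for their ratios, so these counts are a description.

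Lin7c, a scaffold protein of cell junctions, separated heated from control cells best among the genes named as lower, with the heated cell higher in 4.9% of combinations. It was at 0, 21.9 and 82.6 CPM in the lowest, median and highest heated cell and at 39.6, 93.7 and 239 CPM in the control cells. In 11 of 13 heated cells the level was under every control cell (log2 -1.57, -2.65 to -0.66; -2.31 without heated cell 2). The control level, 90.98 CPM, was the highest of the unheated groups, which went down to 46.2 CPM, against 29.9 CPM in the heated cells.

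Rsrc2, a protein with the arginine- and serine-rich stretch of splicing factors, was at 0, 52.05 and 142.1 CPM in the lowest, median and highest heated cell and at 89.03, 188.9 and 366 CPM in the control cells. Each control cell had a UMI of it but only 8 of 13 heated cells did, and 9 heated cells lay under every control cell (log2 -1.98, -2.75 to -1.30; 0.31 before heating). The control level, 202.2 CPM, was the highest of the unheated groups. Before heating the 45 °C and 37 °C arms stood at 124.8 and 101.3 CPM, against 50.6 CPM in the heated cells. Other splicing regulators did not share so large a difference. Of 32 measured SR proteins, their kinases and related genes, 19 had ratios under 0 (median -0.16, against -0.14 over all measured genes), and 1, Rsrc2, was called lower, beside 6.3% of all genes. Sfpq, a nuclear protein of paraspeckles, was at 290 against 427 CPM (-0.56, -0.91 to -0.22), while Srsf2 and Srsf3 were at 471 against 442 CPM and 494 against 445 CPM.

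Riox1, a nucleolar oxygenase gene with 1 exon, was at 0, 21.9 and 65.2 CPM in the lowest, median and highest heated cell and at 35.6, 66.5 and 197.8 CPM in the control cells. Dcaf7, an adaptor of ubiquitin ligases, was at 0, 33.4 and 83.9 CPM in heated and 48.1, 93.7 and 155.2 CPM in control cells. In both genes 10 of 13 heated cells lay under every control cell (log2 -1.77, -3.00 to -0.76, and -1.55, -2.58 to -0.66), and the arms had not differed that way before heating (0.40 and 0.28).

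Mat2a, which makes the methyl donor S-adenosylmethionine, stayed detectable in every cell. It was at 82.6, 121.3 and 252 CPM in the lowest, median and highest heated cell and at 84.5, 328 and 559 CPM in the control cells. The lowest cells of the groups were alike, yet all 13 heated cells lay under the control median (log2 -1.40, -1.92 to -0.93). The control level, 305.8 CPM, was the highest of the unheated groups. Before heating the 45 °C and 37 °C arms stood at 249.5 and 202.7 CPM, against 114.9 CPM in the heated cells. Of 18 measured genes of the methionine cycle and polyamine synthesis, 1, Mat2a, was called lower, beside 6.3% of all measured genes, and the median was -0.09. Odc1, of polyamine synthesis, was at 225 against 293 CPM (-0.38, -0.78 to 0.02) and Srm at 319 against 313 CPM (0.03, -0.33 to 0.39).

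**Figure D4:**
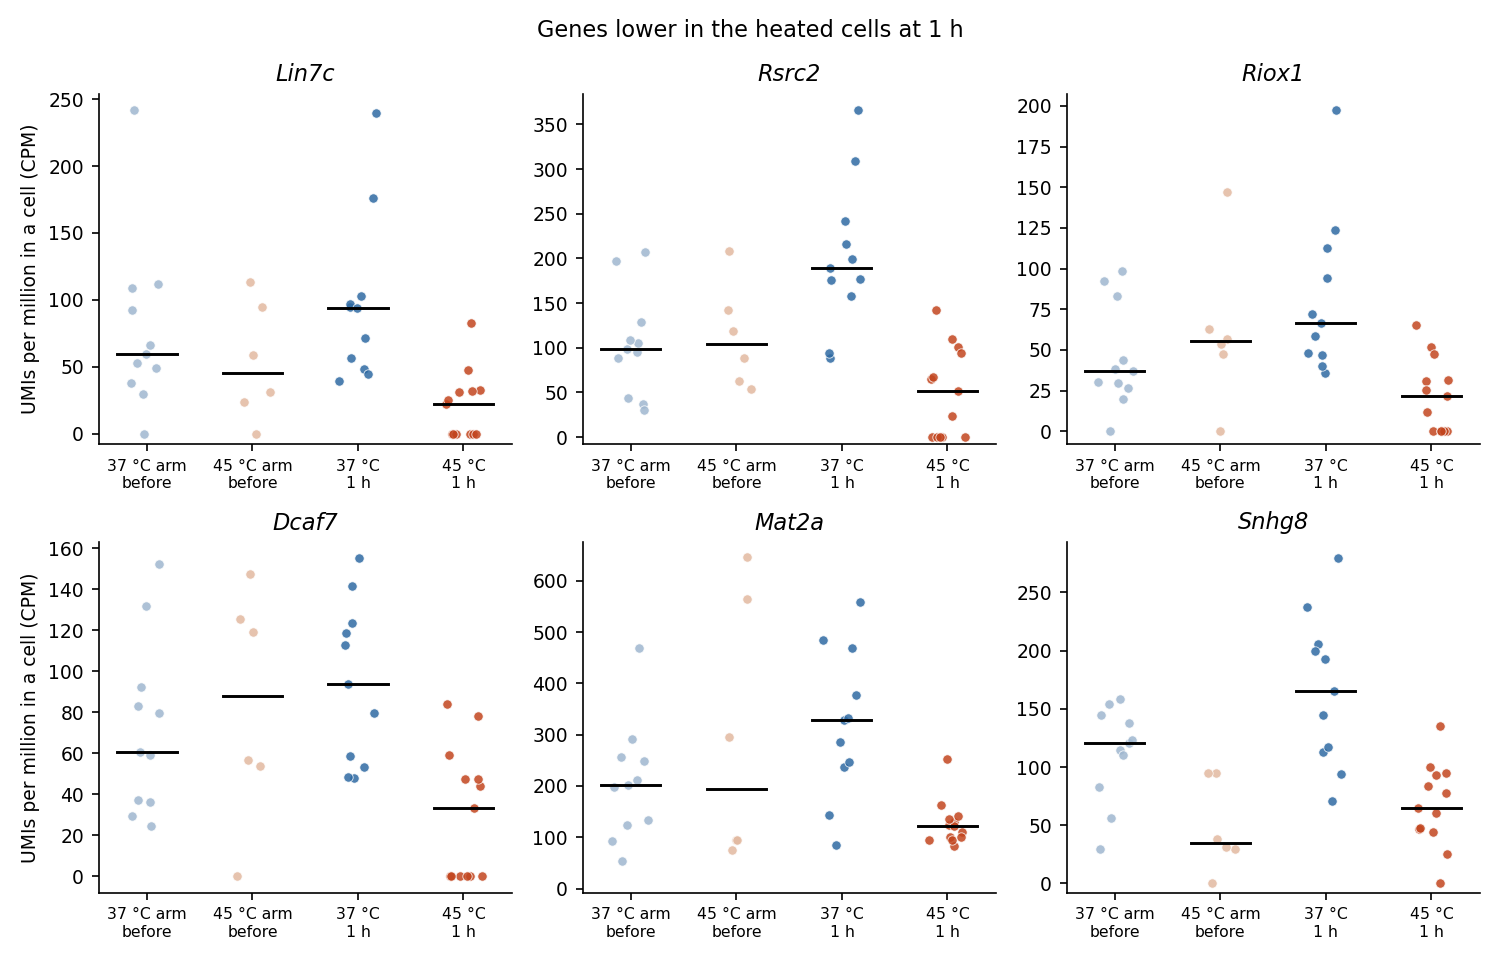
Levels (CPM, linear axes from 0) of 6 genes that stood lower in the heated cells, in single cells before heating and at 1 h. Points are cells and lines are medians. The Snhg8 panel shows a low 45 °C arm already before heating, and the Mat2a panel a narrow band of heated cells between 82.6 and 252 CPM.

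Several noncoding RNAs stood lower, with an arm difference before heating. Snhg8, a host of small nucleolar RNAs, was at 0, 65.2 and 135.6 CPM in the lowest, median and highest heated cell and at 71.2, 165.3 and 279 CPM in the control cells. The control level, 161.7 CPM, was the highest of the unheated groups, and the heated level, 59.8 CPM, lay inside their range. The log2 ratio of Snhg8 was -1.42 (-2.15 to -0.76), against -1.11 (-2.31 to -0.18) before heating. Snhg5 followed it, at -1.35 (-2.39 to -0.43) and -0.73 before heating, and 11 of 13 measured host genes were under 0 (median -0.41; -0.01 before heating), although Gas5, the most abundant, was at 421 against 440 CPM. Malat1, a nuclear noncoding RNA, was at 63.04, 141.7 and 649 CPM in the lowest, median and highest heated cell and 283, 559 and 1740 CPM in the control cells; 8 of 13 heated cells lay under every control cell. Its log2 ratio was -0.98 at 1 h (-1.31 to -0.67) and -0.86 before heating (-1.26 to -0.48), so the difference at 1 h cannot be told apart from a difference between the arms.

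The remaining genes named as lower were seen in a minority of heated cells or at low levels. Zfp568, a zinc finger repressor, had 3 UMIs in 3 heated cells against 20 UMIs in 8 control cells (log2 -2.69, -5.27 to -1.12). Lactb, a mitochondrial serine protease, had 4 against 21 UMIs (-2.39, -4.53 to -0.96). Unc119b, a lipid-binding chaperone of cilia, was at 18.4 against 78.3 CPM (-2.03, -3.42 to -0.94), and Cdc27, a subunit of the anaphase-promoting complex, at 32.2 against 103.6 CPM (-1.65, -2.68 to -0.78). Ppan and Exosc6, of ribosome assembly and of the RNA exosome, were at 52.9 against 141.5 CPM (-1.40, -2.19 to -0.70) and 39.1 against 111.2 CPM (-1.48, -2.41 to -0.67). Arhgef10l, a guanine nucleotide exchange factor, was at 13.8 against 55.6 CPM (-1.93, -3.60 to -0.66). For Arhgef10l the 45 °C arm was the lower one already before heating, with 24.95 against 50.7 CPM (log2 -0.92, -2.77 to 0.41). Sap30l, Rtn4rl1 and Acot7 moved with single cells: -2.11 became -2.84 without heated cell 1, -1.72 became -2.54 without heated cell 3, and -1.59 became -0.83 without control cell 7, which had 845 CPM of Acot7. Rtn4rl1 was at 22.98 CPM in the heated cells and already at 24.95 CPM in the 45 °C arm before heating, against 59.5 CPM in the 37 °C arm (-1.14). For Zfp568, Lactb, Cdc27, Arhgef10l, Sap30l, Rtn4rl1 and Acot7 the control level at 1 h was the highest of the unheated groups.

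Features of the called genes were looked at after their values had been seen. Genes with no spliced transcript in the annotation made up 2.43% of the genes called lower and 1.76% of all measured genes. Genes with zinc finger names (Zfp, Zscan, Zkscan and Zik) had ratios under 0 in 36 of 47 measured, with a median of -0.45 and 6 called lower (12.8%), and none higher. Their median level was 38.7 CPM, and of all measured genes under 50 CPM 11.6% were called lower, with a median of -0.26. The same names had a median of -0.005 before heating, 0.30 in the control arm at 1 h over -1 h and -0.19 in the heated arm over its own -1 h cells.

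Chaperone genes differed little at 1 h. Of 42 heat shock proteins and cochaperones 27 were measured, and 17 of them had ratios above 0 (median log2 0.16, against -0.14 over all measured genes and 0.01 before heating); none was called in either direction, beside 1.44% and 6.3% of all genes. The inducible HSP70 genes Hspa1a and Hspa1b were at 0 UMIs in all 24 cells. The median was -0.02 with all unheated groups as control.

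Hsph1, a partner of HSP70, had the highest ratio. It was at 47.4, 216.4 and 431 CPM in the lowest, median and highest heated cell and at 110.8, 144.1 and 267 CPM in the control cells. The groups overlapped: 5 heated cells were above every control cell and 1 was under every control cell (log2 0.69, 0.25 to 1.16; -0.52 before heating). The control cells were among the low ones of the series, since unheated groups ranged from 154.7 to 365 CPM.

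The abundant chaperones differed by less. Hsp90ab1 was at 3441, 5163 and 7445 CPM in the lowest, median and highest heated cell and at 3700, 4677 and 5188 CPM in the control cells, with 6 heated cells above every control cell (0.25, 0.16 to 0.34). Hsp90aa1 had medians of 1434 and 1209 CPM (0.32, 0.16 to 0.49) and Hspa8, the constitutive HSP70, of 2371 and 2333 CPM (0.11, -0.02 to 0.24). Fkbp5, a cochaperone of steroid receptors, had the lowest ratio, at 57.5 against 106.1 CPM (-0.87, -1.66 to -0.14). In mitochondria, Hspd1 and Hspe1, the chaperonin genes, were at 1487 against 1418 CPM (0.07, -0.10 to 0.23) and 1126 against 905 CPM (0.32, 0.12 to 0.52), the latter at -0.038 with all unheated groups as control, -0.029 with the 45 °C arm before heating and -0.035 at 5000 UMIs a cell, while Clpp, a protease, was at 75.8 against 159.2 CPM (-1.06, -1.72 to -0.44; -0.86 without control cell 2). Hsf1 itself was at 34.5 against 32.9 CPM (0.06, -1.10 to 1.26).

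**Figure D5:**
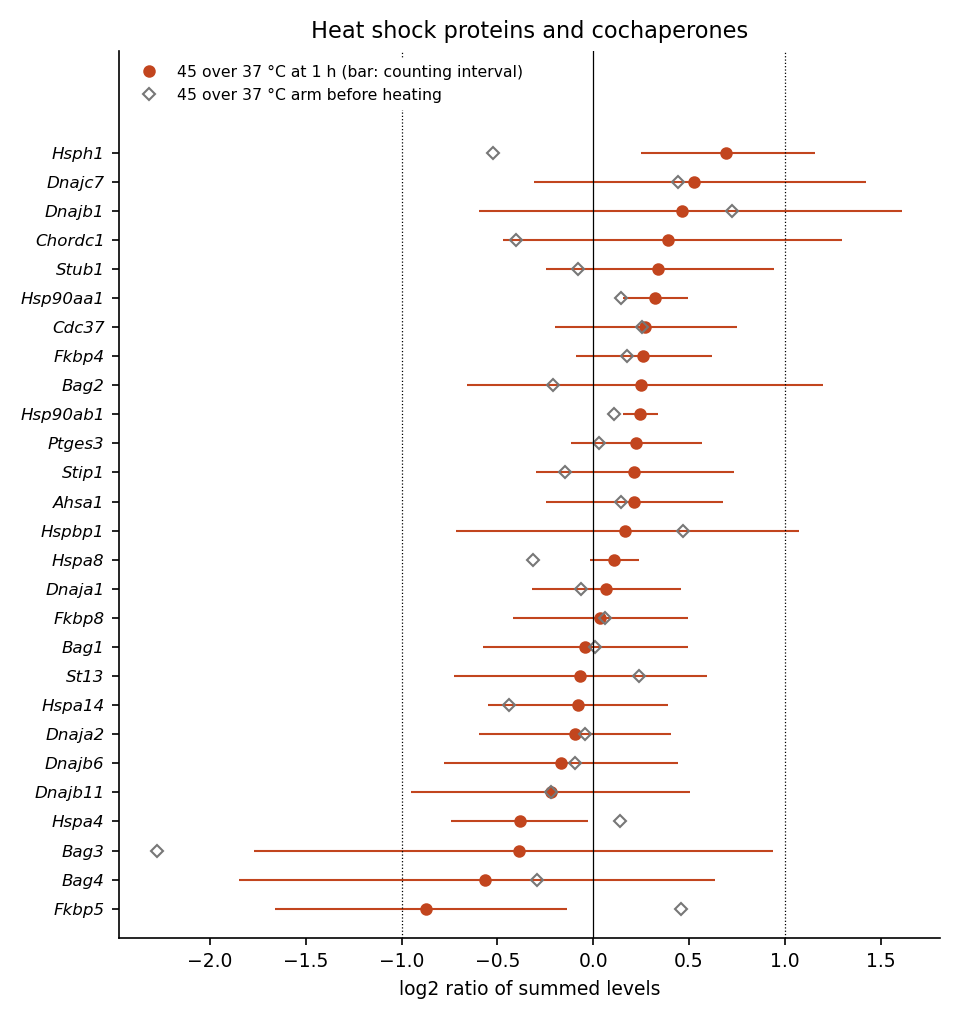
Log2 ratios of the 27 measured heat shock proteins and cochaperones at 1 h (filled points with 95% counting intervals) and of the same genes between the arms before heating (open diamonds). All filled points lie between -0.87 and 0.69, inside the dotted 2-fold lines.

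A search of RefSeq promoter windows (250 bases before to 50 after each start, GRCm38.p6) for 3 alternating GAA units, TTCNNGAANNTTC or GAANNTTCNNGAA, covered both strands, since each pattern is the reverse complement of the other. It matched 0.603% of 32851 windows and 5 of the 47 windows of the heat shock list (10.6%), which belong to Dnajb6, Hsph1 and Chordc1. Their matches, in capitals, are shown to let the values be read beside the element.
Dnajb6 (chr5:29735844-29735872, plus strand): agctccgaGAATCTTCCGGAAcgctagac
Hsph1 (chr5:149636287-149636308, minus strand): gctgcagaTTCTGGAAAGTTCt
Chordc1 (chr9:18292260-18292288, plus strand): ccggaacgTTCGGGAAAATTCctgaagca
The match of Dnajb6 began 46 bases before its annotated start, that of Hsph1 36 bases after and that of Chordc1 1 base after. Of these genes Hsph1 is described above, Chordc1, a partner of HSP90, was at 66.7 against 50.5 CPM (0.39, -0.47 to 1.30), and Dnajb6, an HSP40, at 108.02 against 121.3 CPM (-0.17, -0.78 to 0.44). A match is a pattern of letters and does not show binding.

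Other stress lists did not move one way. Of 26 measured genes of the ATF4 integrated stress response 19 had ratios under 0, as had 3322 of all 5273 measured genes. The median was -0.20, against -0.14 over all measured genes and 0.05 for the list before heating. Of the 26, 1 was called lower, beside 6.3% of all genes. The list's median was 0.26 in the control arm at 1 h over -1 h and -0.03 in the heated arm over its own -1 h cells. Of 6 measured p53 targets 4 had ratios above 0 (median 0.12) and of 5 ubiquitin genes 4 (median 0.13), with none called. Chac1, which degrades glutathione, was seen in 2 of 13 heated and 6 of 11 control cells, at 9.19 against 63.2 CPM (-2.64, -4.76 to -1.25). Before heating the arms differed the other way, at 74.9 against 26.4 CPM (log2 1.49, 0.31 to 2.73). The unheated groups ranged from 4.1 to 74.9 CPM, and the heated level lay inside that range. Atf4 itself was at 0, 614 and 880 CPM in the lowest, median and highest heated cell and at 140.6, 822 and 1503 CPM in the control cells, with 10 of 13 heated cells under the control median (-0.51, -0.75 to -0.28; 0.05 before heating). Its heated group level, 599.9 CPM, was near those of the arms before heating (624 and 606 CPM), while the control level at 1 h, 857 CPM, was the highest of the unheated groups. Of 10 measured immediate early genes 8 were under 0 (median -0.40; 0.47 before heating), Klf6 among them (-1.05, -2.22 to -0.01; -0.58 without control cell 8), while Junb, at 29.9 against 17.7 CPM (0.71, -0.68 to 2.32), turned to -0.03 without heated cell 13. The cold-inducible Rbm3 was at 853 against 768 CPM (0.15, -0.07 to 0.37).

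Cell cycle genes differed much as they had before heating. Of 50 measured S phase genes 38 had ratios above 0 (median 0.32; 0.43 before heating), and 4 were called higher, beside 1.44% of all measured genes. They included 3 replication genes, Gins1 (1.11, -0.02 to 2.46), Gins2 (1.06, 0.33 to 1.87) and Cdc45 (1.02, 0.13 to 2.03), which were 0.89 and 0.90 without control cell 2 and 0.74 without heated cell 13. Of 54 measured G2 and M phase genes 44 had ratios under 0 (median -0.35; -0.33 before heating). Cdc20, the activator of the anaphase-promoting complex, was at 31.5, 83.9 and 394 CPM in the lowest, median and highest heated cell and at 0, 289 and 752 CPM in the control cells (-1.10, -1.55 to -0.67; -1.06 before heating). The part of these list differences in the other results was not tested.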

How the data were processed

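The deposited table held estimated counts of UMIs per gene and cell, not scaled, and 5.2% of the values above 0 in these 24 cells were not whole (23.4% of their UMIs). Per the submitters' processing notes, STAR and the build mm10 were used; which program and annotation gave the counts is not given in the sources used here. Cells were picked singly, so no doublet caller was run. Spike-in and mitochondrially encoded RNAs were not analysed here. UMIs were summed over the cells of a group, rounded to whole numbers and divided by the group's total (CPM). Log2 ratios were taken after adding 0.5 UMI, with the exact conditional (Clopper-Pearson) 95% interval. The ratio and interval were checked on simulated counts. Python 3.11.15, numpy 2.4.6, pandas 2.3.3, scipy 1.17.1 and matplotlib 3.10.9 were used.

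Genes were named by the rule given in the text (up to 15 a direction, without predicted genes); some of them are not reported here. Of each list described, the highest and lowest ratio, the 3 members with most UMIs and any called member could be named, with Hspa1a, Hspa1b and the short RNAs in any case; Dnajb6 and Chordc1 were named for their promoters. The cells, the 39 gene lists and 7 marker lists and the rules were chosen with earlier results of these data known. The alternatives were other totals, depths, filters and controls, and leaving out each cell.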

Additional observations from a re-analysis of the deposited data

How the results depend on the processing

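No paired analysis was possible because the cell numbers in the labels only name cells and no result comes from a test. The share of genes called higher, 1.44% of 5273 measured, became 3.05% of 952 with cells thinned to 5000 UMIs, 2.35% of 1998 at 10000 UMIs (added after seeing the data), 0.38% of 1316 with at least 100 UMIs over both groups together, 10.6% of 10302 with no filter and 2.65% of 4419 with the 45 °C arm before heating as control. The 6.3% called lower became 3.78%, 5.01%, 0.38% and 16.8% under the first 4 of these, 4.12% after centring on the median of all genes and 8.16% of 7575 against all unheated groups. Fewer genes were measured in thinned cells. The heat shock list median of 0.16 became 0.30 after centring, -0.0035 with no filter and -0.017 against all unheated groups. The polymerase III log2 ratio of 6.37 became 5.24 with all unheated groups as control and 6.77 with the 45 °C arm before heating, and ranged from 6.23 to 6.86 with 1 cell left out (6.86 without control cell 4). The difference of -292 genes seen per cell became -132 at 5000 UMIs. With the 45 °C arm before heating as control these log2 ratios changed sign: Casc4 -0.019, Snhg8 0.22, Phgdh 0.23, Snhg5 0.039, Cdc45 -0.054, Hmgb2 0.052, Cdc20 0.36, Bdp1 0.95, Tuba1c 0.062 and Hspe1 -0.029. Hspe1 was at -0.038 against all unheated groups. With cells thinned to 5000 UMIs, Hspe1 was at -0.035, Clpp 0.21, Vaultrc5 -0.24, Hsp90b1 -0.16, Sfpq 0.12, Cdc25c 1.34 and Gtf3c6 -0.69, and at 10000 UMIs Samhd1 was at -0.34. Thinned groups hold few UMIs of such genes; beyond fewer UMIs or other control cells, the cause was not tested. Depth limits genes under 50 CPM most: a control count of 0 allows up to 7.58 CPM.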

Other observations

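Of 12 measured apoptosis regulators 9 had ratios under 0 at 1 h (median log2 -0.36, beside -0.14 over all measured genes and 0.01 for the list before heating). Bmf, a death-promoting BCL2 relative, was at 9.19 against 42.96 CPM (-2.10, interval -4.25 to -0.61) and Xiap, a caspase inhibitor, at 27.6 against 60.7 CPM (-1.11, -2.27 to -0.08; -0.80 without heated cell 2). Casp8, an initiator caspase, was at 59.8 against 25.3 CPM (1.20, 0.14 to 2.46; 0.98 without control cell 2), Bcl2l1, an inhibitor of cell death, at 290 against 202.2 CPM (0.52, 0.10 to 0.94), and Cycs, cytochrome c, at 602 against 457 CPM (0.40, 0.12 to 0.68). The heated levels of Bmf, Casp8, Bcl2l1 and Cycs lay inside the range of the unheated groups, and that of Xiap lay under it. For Bmf that range was 4.49 to 52.9 CPM, and 4 of 13 heated and 4 of 11 control cells had a UMI. Members that restrain and members that promote cell death stood on both sides.

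Of 13 measured stress granule proteins 8 had ratios under 0 (median -0.12, against -0.14 over all measured genes), and 1, Atxn2, was called lower, beside 6.3% of all genes, at 20.7 against 55.6 CPM (-1.38, -2.73 to -0.25), while Pabpc1, the main poly(A)-binding protein, was at 1956 against 1830 CPM (0.10, -0.05 to 0.24). Of 7 measured tubulins 6 had ratios under 0 (median -0.24; 0.03 before heating): Tuba1b was at 1708 against 2052 CPM (-0.26, -0.41 to -0.12) and Tuba1c at 340 against 483 CPM (-0.50, -0.82 to -0.19).

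Some high ratios came from 1 cell each, as a search for genes with at least 40 UMIs in a group and at least 50% of them in 1 cell showed. Adamts4, a secreted protease, had 49 UMIs in the heated group, all in heated cell 2 (578 CPM), and none in the control cells. Prkx, a protein kinase, had 71 of its 85 heated UMIs in heated cell 5 (1848 CPM, against at most 90.98 CPM in the other heated cells), and its log2 ratio of 2.24 became -0.19 without that cell. Timm22, of the mitochondrial import machinery, had 55.1% of its heated UMIs in heated cell 13, and its log2 ratio of 0.88 became -0.17 without it. No gene of the control cells met these limits. These genes were chosen after their values had been seen.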
